A study of Mus musculus with 4 samples.

Results

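The genes examined here encode the machinery that brings new secretory proteins into the endoplasmic reticulum (ER) and carries them to the Golgi. They are 48 genes of the 24411 gene symbols in the deposited count table, taken by name from a list of subunits and receptors. The rule uses no measured value, but the list was drawn up with earlier results of these data known. All 48 were found, and all 48 passed the filter on low counts. RNA was sequenced from sublingual glands, which are salivary glands rich in mucous cells, taken from female C57BL/6J mice with the genotype Nkx2.3-/-. The groups were 32-week-old mice (2 libraries, replicates 3 and 4) and 8-week-old mice (2 libraries, replicates 1 and 2), so every library carries the knockout and age is the only labelled difference. The labels do not say whether a library holds 1 animal or several, or that the libraries are separate animals, and p-values therefore measure the spread between these libraries, which may be technical. No gland with intact Nkx2-3 was analysed here.

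A secretory protein is recognised by the signal recognition particle (SRP) as its signal peptide leaves the ribosome, is threaded through the Sec61 channel, loses its signal peptide to signal peptidase and receives N-glycans from the oligosaccharyltransferase. COPII-coated vesicles then carry it from ER exit sites toward the Golgi, and COPI-coated vesicles return escaped ER residents and cargo receptors. Salivary acinar cells secrete large amounts of protein and depend on this route.

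Total counts were 16484772 and 16111122 in the 32-week libraries and 12925869 and 14265485 in the 8-week libraries. CPM below are counts relative to library size, scaled by trimmed mean of M-values (TMM) factors. No member had fewer than 162 counts in any library. The deleted gene, Nkx2-3, had 21 and 29 counts at 32 weeks and 31 and 28 counts at 8 weeks. The part of the gene that was removed is not stated in the sources used here, so these reads do not check the genotype. The gland's own markers were present, with Muc19, its gel-forming mucin, at 20281 and 16721 CPM in the 32-week pair, against 12021 and 13869 CPM in the 8-week pair. Of 10 mucous acinar markers 6 were detected in all 4 libraries, and Ern2 was at 0 counts in each. All 9 serous and demilune markers were detected, and they summed to 507852 and 346774 CPM in the 32-week pair, against 369381 and 425657 CPM in the 8-week pair.

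The libraries of an age were not alike. The median absolute log2 difference of the 48 members was 0.13 for the 32-week pair and 0.32 for the 8-week pair. It was also 0.13 between 32-week replicate 4 and 8-week replicate 1, which carry different ages. Over all 12810 genes that passed the low-count filter the within-age medians were 0.18 at 32 weeks and 0.33 at 8 weeks. Replicate 2 at 8 weeks was the highest library for 21 of 48 members and the lowest for 14, against 34.7% and 35.3% of all genes. Plasma cell markers, of which all 8 in the table were detected, summed to 616 and 920 CPM at 32 weeks and to 1040 and 140.0 CPM at 8 weeks, with the low value in replicate 2. Agr2, a disulfide isomerase needed for mucin folding, had 49.6 and 49.7 CPM in the 32-week pair, against 57.2 and 5.59 CPM in the 8-week pair, again low in replicate 2. Other mucous markers fell less there. Galnt12, Creb3l1, Spdef and Sval2 were lowest in replicate 2, with Spdef at 88.0 CPM against 130 to 146 CPM in the other libraries. Muc19 was lowest in 8-week replicate 1 instead. Duct markers, all 10 of which were detected, summed to 3250 and 2448 CPM at 32 weeks and to 3024 and 5548 CPM at 8 weeks, with the high value in replicate 2. Most of that sum was Klk1, at 4327 CPM in replicate 2. Fxyd2, Krt19, Krt7, Cftr and Slc5a8 were also highest there. Krt18 and Elf5 were lowest there, and Ascl3 and Scnn1a were highest in 32-week replicate 3, so the list did not move as 1. Markers of the submandibular and parotid glands were lower at 32 weeks, with sums of 174 and 129 CPM, than at 8 weeks, with sums of 594 and 475 CPM. Of these 8 genes 6 were detected in all libraries, and Prb1 was at 0 in each. Replicate 1 at 8 weeks stood apart in some of them, with 152 CPM of Amy1, salivary amylase, against 1.63 to 2.005 CPM in the other libraries. The part of these cell markers in the results below was not tested.

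The translocation and transport genes were abundant and their total differed little between the libraries. Together they took 0.798% and 0.932% of all counts at 32 weeks and 0.928% and 0.966% at 8 weeks. Their TMM-scaled sum was 9098 and 8734 CPM in the 32-week pair, against 8855 and 9511 CPM in the 8-week pair, a spread of 1.09-fold from the lowest to the highest library. A sum evens out opposite moves, and single members spread more, up to 1.88-fold for Copz1. Over the same libraries the demilune cargo gene Dcpp3, also a single gene, spread 3.04-fold, with 249002 and 90256 CPM in the 32-week pair, against 81956 and 178597 CPM in the 8-week pair. Other serous and demilune markers did not all follow it. Dcpp1, Dcpp2, Bpifa2 and Aqp5 were also highest in 32-week replicate 3, and Lpo and Car6 in 8-week replicate 2. Smgc and Spt1 were lowest in 32-week replicate 3. Smgc had 41973 and 125863 CPM in the 32-week pair, against 142077 and 73277 CPM in the 8-week pair. For Spt1 the values were 3102 and 36104 CPM, against 65020 and 3654 CPM. In whole glands, fewer cells of a type and less RNA per cell cannot be told apart.

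Levels between genes were compared as CPM per kilobase (CPM per kb) of the longest protein-coding transcript in the annotation. No length was used for Spcs3. Of the other 47 members, 46 stood above the median of the genes with a length, 37 were in the top 10 percent, and the exception below the median was Sec23a. Their median was 66.2 CPM per kb, against 3.60 CPM per kb over all genes kept. By complex the medians were 165 CPM per kb for signal peptidase, 117 for the translocon-associated protein (TRAP) complex, 114 for the Sec61 translocon with Sec62 and Sec63, 73.3 for the cargo receptors, 55.9 for the oligosaccharyltransferase, 54.0 for SRP and its receptor, 53.5 for COPI and 35.2 for COPII. The medians of the oligosaccharyltransferase, of SRP and its receptor and of COPI lie close together, and COPII is below them. Within the complexes the members spread to differing degrees, as the plot of levels shows. COPII ran from 3.33 to 265 CPM per kb, and the cargo receptors only from 59.4 to 145. The order of the complexes depends on the transcript length used. By the median coding transcript, an alternative added after the data were seen, the Sec61 group came highest with 210.4 CPM per kb, followed by signal peptidase with 168, and COPII was again lowest with 39.1.

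**Figure D1:**
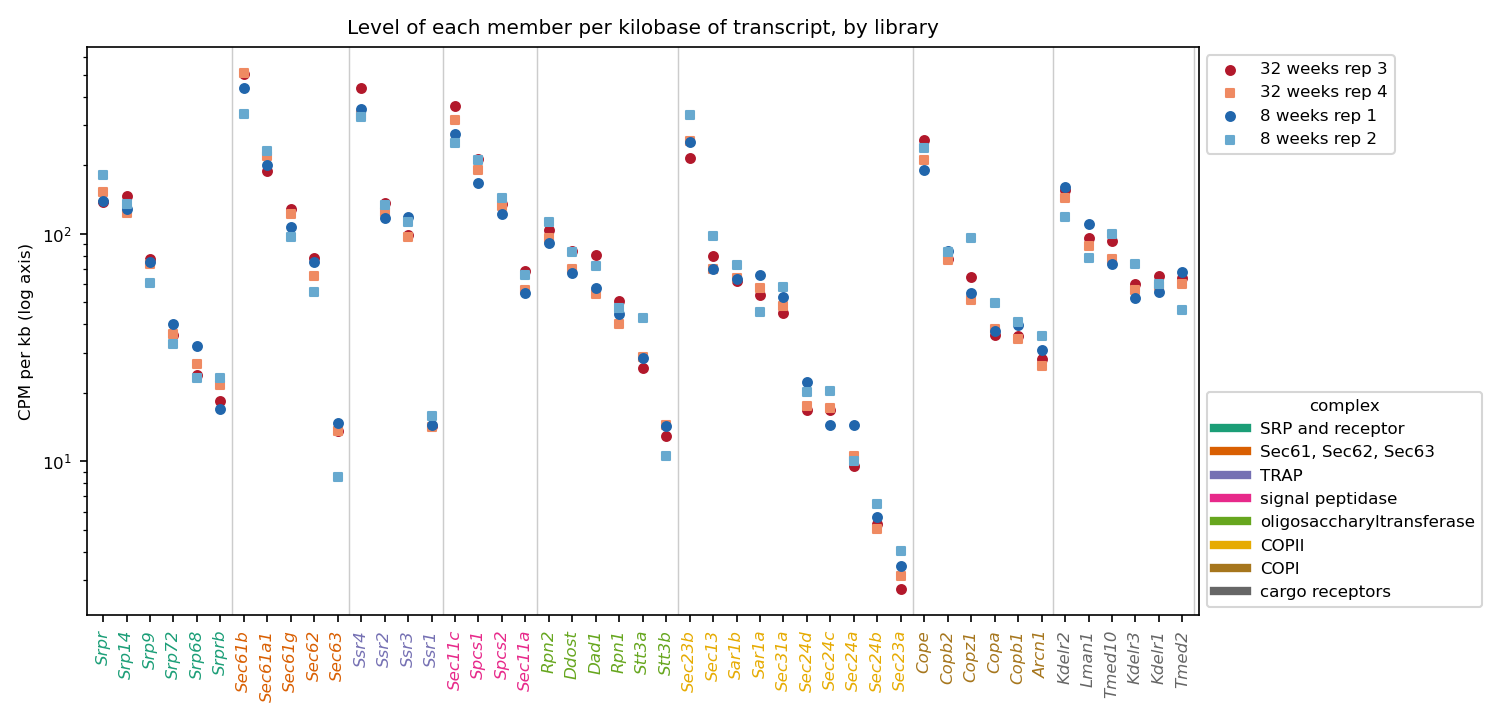
Level of 47 members in CPM per kb of the longest protein-coding transcript (log axis), grouped by complex and ordered by mean level. Circles and squares are the single libraries, red at 32 weeks and blue at 8 weeks. Sec61b is the highest member (mean 448) and Sec23a the lowest (mean 3.33), and for most members the 4 libraries lie close together beside the distance between genes.

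No member passed the age comparison. With edgeR's quasi-likelihood test across all genes, 0 of 48 members and 0 of 12810 genes (0%) reached an adjusted p of 0.05. At an unadjusted p under 0.05 there were 0 members, against 174 genes (1.36%), and the smallest unadjusted edgeR p of a member was 0.132. DESeq2 called 0 members and 3 of 18104 genes (0.0166%), and at an unadjusted p under 0.05 it had 0 members and 89 genes (0.492%). Limma-voom called 0 members and 0 of 12810 genes (0%), and at an unadjusted p under 0.05 it had 0 members and 177 genes (1.38%). Every member named below had an edgeR adjusted p of 0.999.

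The differences were small as well as uncertain. Log2 fold changes, 32 over 8 weeks, ran from -0.38 to 0.39, with a median of -0.03 over the members and -0.01 over all genes kept. Of the members 20 were positive and 28 negative, against 48.3% positive over all genes. The 95% interval held 0 for all 48 members and stayed within a 2-fold change in either direction for 47. The exception was Copz1, whose interval ran from -1.10 to 0.33. These intervals are not adjusted for the number of genes. Their median half-width was 0.53, so changes smaller than about that size could not be told from 0 with 2 libraries an age. To pass the adjusted test a change had to be much larger. Klk1b22, a submandibular marker with a log2 fold change of -2.13 (SE 0.29), had an edgeR adjusted p of 0.784. No gene had a smaller adjusted p.

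The 32-week and 8-week values did not overlap for 13 members, with 3 higher and 10 lower at 32 weeks. The background over all genes kept was 14.4% in the higher and 14.2% in the lower direction, or 28.6% in all. The 13 members that separate are therefore about the background share. The 3 higher members were Sec61b, Sec61g and Sec11c, and the 10 lower were Ssr1, Ssr3, Spcs3, Sec31a, Sec23a, Sec24b, Sec24d, Copb1, Copb2 and Arcn1. The wider of the gaps within one age group was larger than the age difference in 37 of 48 members and in 83.4% of all genes.

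**Figure D2:**
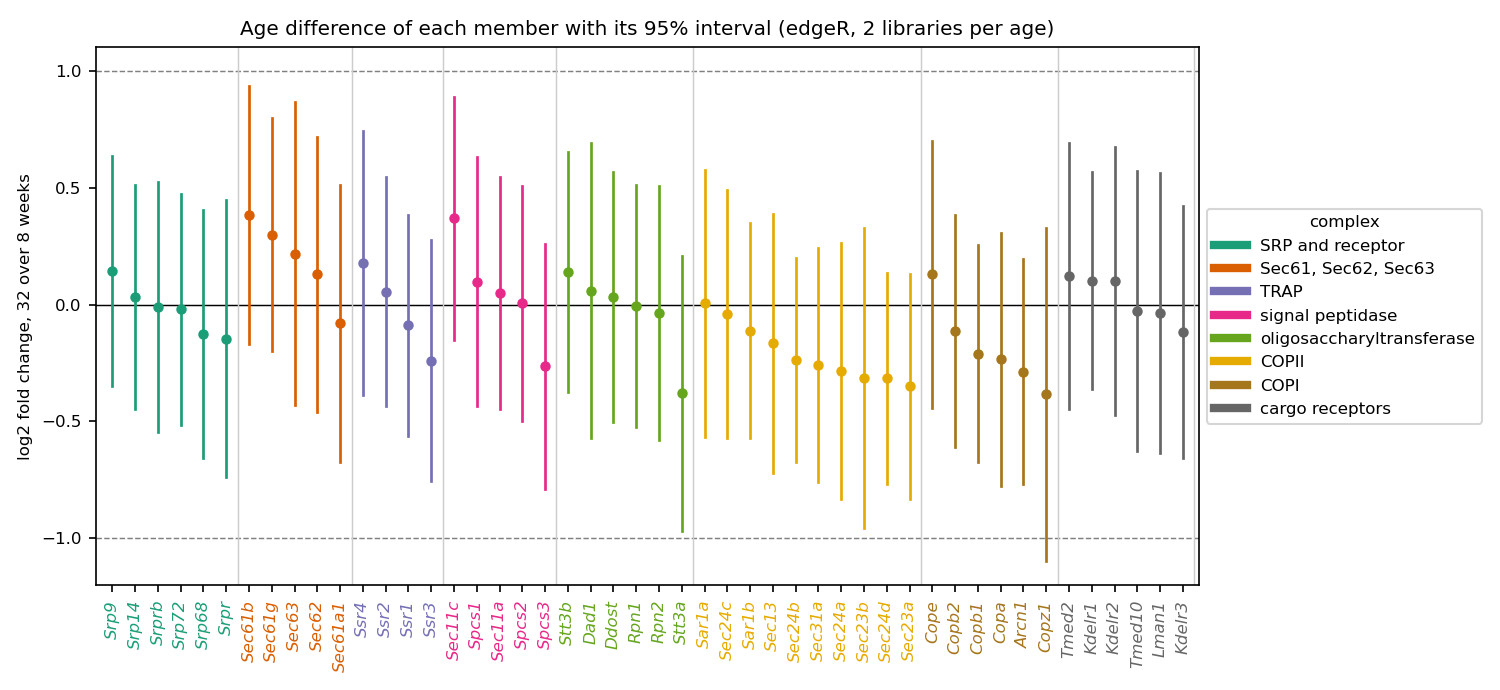
Log2 fold change, 32 over 8 weeks, of each of the 48 members (point) with its 95% interval (line) from the edgeR fit, grouped by complex. Dashed lines mark a 2-fold change. Every interval crosses 0, and the COPII and COPI points lie mostly below it.

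Targeting to the ER begins with SRP and its receptor. Srpr, the subunit of the receptor that binds SRP (NCBIM37 chromosome 9, 35007760 to 35055558, plus strand), was the most abundant of the 6, with 412 and 458 CPM in the 32-week pair, against 418 and 543 CPM in the 8-week pair. The ages overlapped, with the highest value in 8-week replicate 2, and the log2 fold change was -0.15 (SE 0.25, edgeR adjusted p = 0.999). Srp14, which with Srp9 pauses translation at the ribosome, had 117 and 98.9 CPM in the 32-week pair, against 102 and 108 CPM in the 8-week pair. Srp9 had 106 and 100.3 CPM in the 32-week pair, against 103 and 83.3 CPM in the 8-week pair (log2 fold change 0.14). The ages overlapped for both, and at 32 weeks replicate 3 was the highest library of the 4 for each. Per kb, Srpr (mean 153) and Srp14 (134) led Srp9 (71.8), Srp72 (36.2), Srp68 (26.5) and Srprb (20.1). Srpr and Srp14 overlapped between libraries in this measure, and the other steps of that order were larger than the spread over the libraries except that between Srp68 and Srprb. No member of this complex separated the ages.

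Sec61a1, the pore of the translocon, had 594 and 694 CPM in the 32-week pair, against 634 and 728 CPM in the 8-week pair (log2 fold change -0.08). The ages interleaved. Its partner subunit Sec61b (NCBIM37 chromosome 4, 47487530 to 47496114, plus strand) had 284 and 288 CPM in the 32-week pair, against 248 and 190.0 CPM in the 8-week pair. Both 32-week libraries were above both 8-week libraries, and the log2 fold change of 0.39 was the largest positive value among the members (SE 0.24, 95% interval -0.17 to 0.94, edgeR adjusted p = 0.999). Sec61g, the third subunit of the channel, had 241 and 227 CPM in the 32-week pair, against 199.5 and 180.6 CPM in the 8-week pair (log2 fold change 0.30, SE 0.21). It also separated the ages, and for both small subunits 8-week replicate 2 was the lowest library. Sec62 and Sec63, which serve import after translation, were lowest in that library as well. Sec63 had 81.8 and 81.5 CPM in the 32-week pair, against 89.0 and 51.4 CPM in the 8-week pair. Without 8-week replicate 2 the median log2 fold change of these 5 genes was 0.03, against 0.22 with all libraries. By the longest transcript Sec61b had the highest level of the members, 448 CPM per kb. By the median coding transcript it had 587 and Sec23b was higher at 782. That Sec23b value uses a short median length, 944 bases against 2779 for the longest. The Sec61g level likewise depends on the transcript model, at 114 CPM per kb by the longest and 293 by the median coding transcript.

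The TRAP complex sits beside the channel and helps some signal peptides to open it. Ssr4 had 350.5 and 268 CPM in the 32-week pair, against 284 and 262 CPM in the 8-week pair (log2 fold change 0.18), and was the most abundant of the 4 per kb (mean 364). Ssr2 had 160.0 and 145 CPM in the 32-week pair, against 137 and 156 CPM in the 8-week pair (log2 fold change 0.06). The ages overlapped for both. Ssr3 had 293 and 285 CPM in the 32-week pair, against 349 and 334 CPM in the 8-week pair. Both 32-week libraries were lower (log2 fold change -0.24, SE 0.22), and the direction held with each library left out in turn, from -0.26 to -0.21.

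Signal peptidase has alternative catalytic subunits, Sec11a and Sec11c. Sec11c (NCBIM37 chromosome 18, 65960203 to 65977319, plus strand) had 295 and 255 CPM in the 32-week pair, against 222 and 203 CPM in the 8-week pair. Both 32-week libraries were higher, with a log2 fold change of 0.37 (SE 0.22, 95% interval -0.15 to 0.89, edgeR adjusted p = 0.999) that lay between 0.27 and 0.48 with each library left out in turn. Sec11a had 91.9 and 76.5 CPM in the 32-week pair, against 73.9 and 88.7 CPM in the 8-week pair, and its ages overlapped. Per kb, Sec11c exceeded Sec11a by 5.35- and 5.55-fold at 32 weeks and by 5.02- and 3.81-fold at 8 weeks, the more abundant transcript of the pair in every library. Of the accessory subunits, Spcs1 had 216 and 193 CPM in the 32-week pair, against 169 and 212 CPM in the 8-week pair. Spcs3, whose yeast counterpart is essential, had 134 and 125 CPM in the 32-week pair, against 135 and 176 CPM in the 8-week pair (log2 fold change -0.26, SE 0.22). Both 32-week libraries were the lower ones, by a narrow margin to 8-week replicate 1, and the highest value was in 8-week replicate 2.

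The oligosaccharyltransferase attaches N-glycans through either of its catalytic subunits, Stt3a, which acts at the translocon, and Stt3b, which also glycosylates sites that were skipped. Stt3a had 101 and 113 CPM in the 32-week pair, against 112 and 167 CPM in the 8-week pair (log2 fold change -0.38, SE 0.25, 95% interval -0.97 to 0.21). Stt3b had 54.3 and 60.7 CPM in the 32-week pair, against 60.1 and 44.3 CPM in the 8-week pair (log2 fold change 0.14). In 8-week replicate 2 Stt3a was at its highest and Stt3b at its lowest. Stt3a made up 66.5% of their summed level per kb in 32-week replicates 3 and 4 and in 8-week replicate 1, and 80.1% in 8-week replicate 2. Without that library the log2 fold change of Stt3a was -0.05. The share of Stt3a depends on its transcript model. Its mean level was 31.3 CPM per kb by the longest and 192 by the median coding transcript. Stt3b had 13.1 CPM per kb by either. The median length for Stt3a is only 641.5 bases, against 3936 for the longest, so its higher level rests on short transcript models. Of the shared subunits, Rpn2 had 285 and 265 CPM in the 32-week pair, against 252 and 312 CPM in the 8-week pair, and Ddost had 178 and 149 CPM in the 32-week pair, against 143 and 177 CPM in the 8-week pair. Both overlapped between the ages, as did Rpn1 and Dad1.

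COPII assembles when the GTPase Sar1 recruits an inner coat of Sec23 and Sec24, which binds cargo, and an outer cage of Sec13 and Sec31. Of the 10 genes 9 had negative log2 fold changes and 1 a positive one, against 48.3% positive over all genes kept. Their median was -0.25, against -0.01 over all genes. None passed the test, and 4 of the 10 separated the ages, each lower at 32 weeks, against 14.2% of all genes kept in that direction. Replicate 2 at 8 weeks was the highest library for 7 of the 10. Without it 7 of 10 were negative and the median was -0.16.

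Sec23b was by far the more abundant of the Sec23 paralogs. In mice, loss of Sec23b is known to cause degeneration of professional secretory tissues such as the pancreas and salivary glands. Sec23b (NCBIM37 chromosome 2, 144381965 to 144416485, plus strand) had 601 and 715 CPM in the 32-week pair, against 706 and 929 CPM in the 8-week pair. Sec23a (chromosome 12, 60059370 to 60113004, minus strand) had 11.2 and 12.9 CPM in the 32-week pair, against 14.2 and 16.5 CPM in the 8-week pair. Per kb, Sec23b exceeded Sec23a by 79.3- and 82.2-fold at 32 weeks and by 73.7- and 83.3-fold at 8 weeks, and so made up 98.7% to 98.8% of the pair in every library. Sec23a was lower in both 32-week libraries (log2 fold change -0.35, SE 0.21, 95% interval -0.83 to 0.13), while Sec23b overlapped between the ages (-0.31, SE 0.27, 95% interval -0.96 to 0.33). By the median coding transcript the mean levels were 782 CPM per kb for Sec23b and 4.12 for Sec23a, against 265 and 3.33 by the longest. The order of the pair was thus the same and its ratio larger. The median length for Sec23b is 944 bases, against 2779 for the longest, so the larger ratio rests on short transcript models. Both paralogs had their lowest value in 32-week replicate 3 and their highest in 8-week replicate 2.

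The 250 bases before the start of each Sec23 gene are shown because this pair differed most in level among the paralogs. They are from RefSeq on GRCm38.p6, for Sec23b chr2:144555979-144556228 on the plus strand (48% G and C, the upstream of 2 listed starts) and for Sec23a chr12:59012018-59012267 on the minus strand (64.0% G and C). No letters are capitalised, since neither stretch holds any of the motifs searched below. In Sec23a, matches lie just after the start, outside the stretch shown.
Sec23b: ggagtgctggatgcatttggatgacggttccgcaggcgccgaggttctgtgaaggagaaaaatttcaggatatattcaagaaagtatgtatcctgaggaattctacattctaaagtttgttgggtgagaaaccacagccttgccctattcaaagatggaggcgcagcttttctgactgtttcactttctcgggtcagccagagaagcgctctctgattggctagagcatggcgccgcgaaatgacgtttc
Sec23a: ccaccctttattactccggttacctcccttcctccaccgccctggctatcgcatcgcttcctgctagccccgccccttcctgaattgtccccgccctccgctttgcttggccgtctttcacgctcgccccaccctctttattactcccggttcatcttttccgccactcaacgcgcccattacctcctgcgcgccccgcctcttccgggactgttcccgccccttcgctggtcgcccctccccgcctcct

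No Sec24 paralog dominated. Sec24d had 64.6 and 67.4 CPM in the 32-week pair, against 86.3 and 78.0 CPM in the 8-week pair (log2 fold change -0.32, SE 0.19, edgeR adjusted p = 0.999), and Sec24b had 27.2 and 25.7 CPM in the 32-week pair, against 29.2 and 33.1 CPM in the 8-week pair (-0.24). Both were lower in the 2 libraries at 32 weeks. Sec24a had 62.9 and 69.2 CPM in the 32-week pair, against 94.97 and 66.1 CPM in the 8-week pair, and Sec24c had 74.6 and 76.0 CPM in the 32-week pair, against 64.3 and 90.4 CPM in the 8-week pair. For both the ages overlapped, with Sec24a highest and Sec24c lowest in 8-week replicate 1. Over the libraries the mean shares of the summed level per kb were 36.1% for Sec24d, 32.4% for Sec24c, 20.9% for Sec24a and 10.6% for Sec24b. Sec24d and Sec24c did not differ beyond their spread over the libraries. The place of Sec24a depends on the transcript length used, at 11.1 CPM per kb by the longest and 25.6 by the median.

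The Sar1 GTPase genes were similar in level per kb. Sar1a had 141 and 150.2 CPM in the 32-week pair, against 171 and 119 CPM in the 8-week pair, and Sar1b had 74.2 and 76.8 CPM in the 32-week pair, against 75.6 and 87.5 CPM in the 8-week pair. Per kb Sar1b took 53.4% and 52.7% of the pair at 32 weeks and 49.0% and 61.6% at 8 weeks, with the widest distance in 8-week replicate 2. Sec13, of the outer cage, had 108 and 94.7 CPM in the 32-week pair, against 94.4 and 132 CPM in the 8-week pair, with the ages overlapping. Sec31a, its partner, had 190.4 and 203 CPM in the 32-week pair, against 224 and 247 CPM in the 8-week pair, lower in both 32-week libraries.

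**Figure D3:**
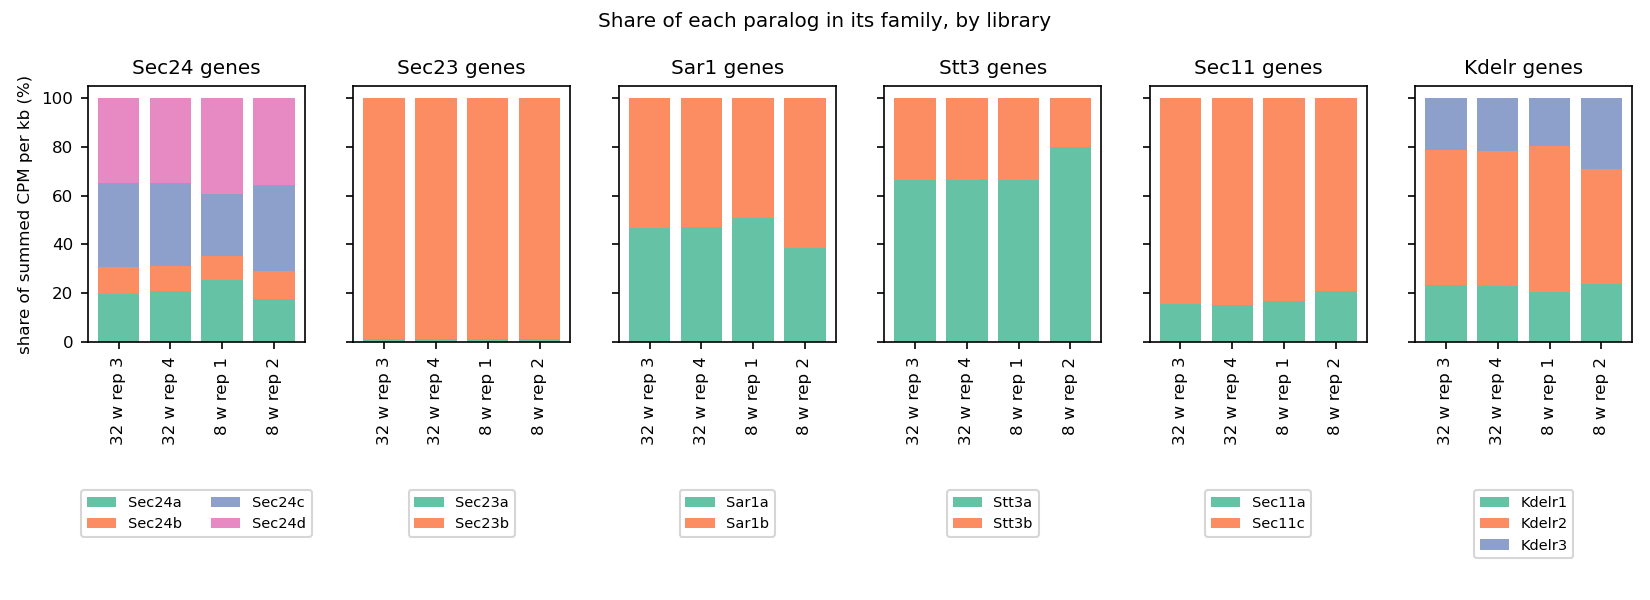
Share (%) of each paralog in the summed CPM per kb of its family, for the Sec24, Sec23, Sar1, Stt3, Sec11 and Kdelr genes, in each library. Sec23b fills 98.7% to 98.8% of its bars, and the Stt3a share is 66.5% in all libraries except 8-week replicate 2, where it is 80.1%.

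COPI is the coat of retrograde vesicles, and 6 of its subunit genes are members. None of these passed the test, and their median log2 fold change was -0.22. Of the 6 genes 5 were negative, against 48.3% positive over all genes kept. Cope, the epsilon subunit, was the exception, with 335 and 275 CPM in the 32-week pair, against 247 and 310 CPM in the 8-week pair (log2 fold change 0.13). It was also the most abundant per kb (mean 224). Copb2, the beta-prime subunit that reads retrieval signals, had 237 and 233 CPM in the 32-week pair, against 255 and 254 CPM in the 8-week pair, a small difference (-0.11, SE 0.21) that nevertheless separated the ages. Copz1 had 158 and 124 CPM in the 32-week pair, against 134 and 234 CPM in the 8-week pair (-0.38, SE 0.31), and the negative value rested on 8-week replicate 2, without which it was 0.08. Without that library 4 of 6 genes were negative and the median was -0.06.

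Cargo receptors and retrieval receptors did not lean to either age. Kdelr2, one of the receptors that return proteins ending in KDEL to the ER, had 288 and 265 CPM in the 32-week pair, against 297 and 219 CPM in the 8-week pair. Kdelr1 had 105 and 94.5 CPM in the 32-week pair, against 88.8 and 96.5 CPM in the 8-week pair, and Kdelr3 had 84.7 and 79.7 CPM in the 32-week pair, against 74.1 and 104 CPM in the 8-week pair. All 3 overlapped between the ages. Per kb Kdelr2 took 55.5% and 55.4% of the family at 32 weeks and 59.9% and 46.9% at 8 weeks, and Kdelr1 and Kdelr3 (means of 60.1 and 60.6 CPM per kb) did not differ beyond their spread. Lman1, a lectin that carries glycoproteins out of the ER, had 342 and 314 CPM in the 32-week pair, against 393 and 279 CPM in the 8-week pair. Tmed2, of the p24 family of vesicle cargo receptors, had 132 and 125 CPM in the 32-week pair, against 140.2 and 95.8 CPM in the 8-week pair (log2 fold change 0.12). Lman1 and Tmed2 were both lowest in 8-week replicate 2, while Tmed10, another p24 protein, was highest there.

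**Figure D4:**
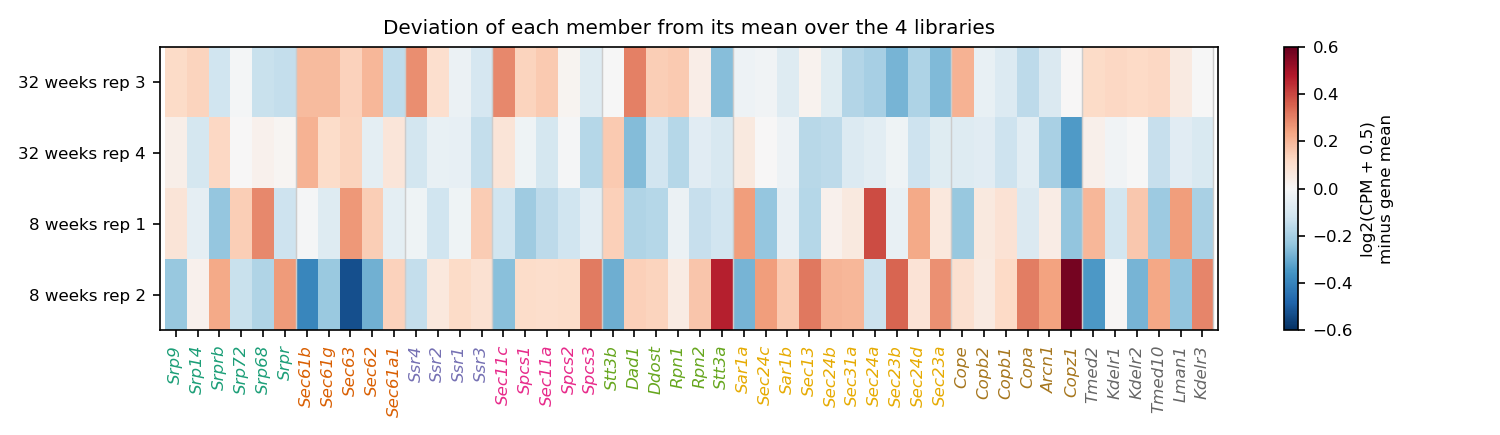
Log2(CPM + 0.5) of each of the 48 members minus its mean over the 4 libraries, with libraries as rows and members as columns in the order of the plot of age differences. Most of the strongest colours are in the row of 8-week replicate 2, where Sec63, Sec61b and Tmed2 are low and Copz1, Stt3a and Sec23b are high.

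Some members carry letters in their promoter windows that match motifs of regulators of secretory genes. XBP1 and ATF6 act in the unfolded protein response, and CREB3L1 is a related membrane-bound factor of secretory cells. RefSeq windows of 250 bases before to 50 after the gene start (GRCm38.p6) were matched for 39 of the 48 members, in 42 windows. The motifs were searched on both strands. The UPRE core TGACGTGG lay in 5 of the 42 windows (11.9%), against 0.676% of all 32851 windows and 0.916% of the windows of genes kept in the test. The core TGCCACGT of the CREB3L1 motif lay in 6 of 42 (14.3%), against 0.612% of all windows and 0.723% of those of kept genes. These motifs overlap where TGACGTGGCA occurs, as in Sec24d and Sec23a. The ERSE motif (CCAAT, 9 bases of any kind, then CCACG) and the ERSE-II motif (ATTGG, 1 base of any kind, then CCACG) were in none of the 42 windows and in 0.119% and 0.0365% of all windows. A match is a description of the letters only.

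The 5 members whose match lay wholly before the start are shown with up to 30 bases on either side, and capitals mark the match. They are Sec24d (chr3:123267440-123267495, plus strand), Copb1 (chr7:114254681-114254738, minus strand), Kdelr3 (chr15:79516348-79516407, plus strand), Sar1a (chr10:61680096-61680163, plus strand) and Sec24c (chr14:20674216-20674283, plus strand), all on GRCm38.p6.
Sec24d: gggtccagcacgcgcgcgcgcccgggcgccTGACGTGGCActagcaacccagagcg
Copb1: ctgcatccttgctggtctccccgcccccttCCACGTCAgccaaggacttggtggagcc
Kdelr3: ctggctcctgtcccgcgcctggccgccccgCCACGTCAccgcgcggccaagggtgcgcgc
Sar1a: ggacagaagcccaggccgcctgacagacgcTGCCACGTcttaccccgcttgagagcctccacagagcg
Sec24c: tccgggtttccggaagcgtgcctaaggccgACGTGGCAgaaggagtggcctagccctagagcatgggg
The levels of these genes did not share 1 pattern over the libraries. Sec24d and Copb1 were lower in both 32-week libraries, Kdelr3 and Sec24c were highest in 8-week replicate 2, and Sar1a was lowest there.

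The regulators themselves were expressed. Xbp1 had 751 and 628 CPM in the 32-week pair, against 683 and 451 CPM in the 8-week pair (log2 fold change 0.28, SE 0.29, edgeR adjusted p = 0.999). Creb3l1 had 699.7 and 700.2 CPM in the 32-week pair, against 745 and 394 CPM in the 8-week pair (0.30, SE 0.34). Both were lowest in 8-week replicate 2, and without that library the value was 0.02 for Xbp1 and -0.08 for Creb3l1. That library was the lowest for 35.3% and the highest for 34.7% of all genes kept. A link between these regulators and the members was not tested. Hspa5, the ER chaperone BiP and a known target of the unfolded protein response, had 176 and 247 CPM in the 32-week pair, against 195 and 222 CPM in the 8-week pair, with no lean to either age.

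**Figure D5:**
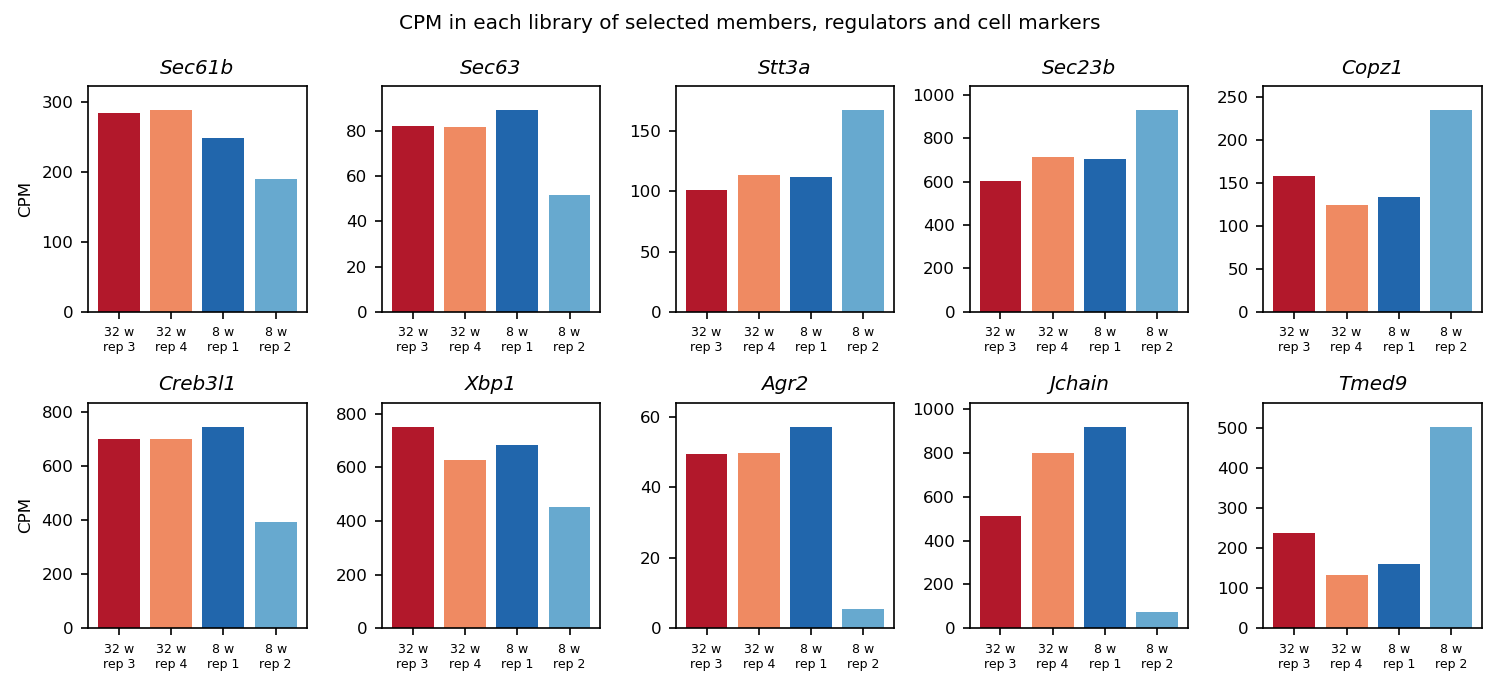
CPM in each library (bars, axes from 0) of 5 members, of the regulators Creb3l1 and Xbp1, of the mucous marker Agr2, the plasma cell marker Jchain and the p24 gene Tmed9. In 8-week replicate 2 Sec61b (190.0), Sec63 (51.4), Creb3l1 (394), Xbp1 (451), Agr2 (5.59) and Jchain (73.7) are at their lowest and Stt3a (167), Sec23b (929), Copz1 (234) and Tmed9 (504) at their highest. Over all genes kept that library was the lowest for 35.3% and the highest for 34.7%.

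Other genes of the same route did not pass the test either. Of 78 genes listed, 75 were tested with edgeR, and 0 passed an adjusted p of 0.05 or an unadjusted p of 0.05, with 36 positive and 39 negative log2 fold changes (median -0.01). By role, 5 of 10 other translocation genes were positive, 4 of 6 other oligosaccharyltransferase subunits, 3 of 9 other COPII and exit-site genes, 6 of 12 other COPI and ARF genes, 4 of 16 other cargo receptors and 14 of 22 ER-Golgi tethers and SNAREs. Srp54b, Srp54c and Tmed6 were at 0 counts in every library, and since Srp54a, Srp54b and Srp54c are close copies, their division of reads is uncertain. Srp54a, named after its value was seen, had 4.98 and 4.13 CPM in the 32-week pair, against 5.09 and 8.35 CPM in the 8-week pair.

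Several of the larger differences in those lists rested on 8-week replicate 2. Tmed9, a p24 cargo receptor, had 238 and 133 CPM in the 32-week pair, against 159 and 504 CPM in the 8-week pair (log2 fold change -0.84, SE 0.52, edgeR adjusted p = 0.999), and 0.23 without that library. Copg2, a COPI gamma subunit, had 13.1 and 11.9 CPM in the 32-week pair, against 12.5 and 30.1 CPM in the 8-week pair (-0.77, and 0.01 without that library). Srp19, an SRP assembly subunit, had 67.1 and 74.5 CPM in the 32-week pair, against 80.9 and 41.6 CPM in the 8-week pair (0.21, and -0.19 without that library). In contrast, the exit-site gene Ctage5 (153 and 165 CPM in the 32-week pair, against 186 and 213 CPM in the 8-week pair, -0.32), the Golgi entry GTPase Rab1b (38.6 and 34.8 CPM in the 32-week pair, against 32.1 and 27.6 CPM in the 8-week pair, 0.30) and the oligosaccharyltransferase subunit Krtcap2 (303 and 256 CPM in the 32-week pair, against 276 and 222 CPM in the 8-week pair, 0.17) kept their direction with each library left out.

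Lman1l, a relative of Lman1 singled out after its value was seen, was among the most abundant of the transport genes. It had 851 and 1025 CPM in the 32-week pair, against 1010 and 774 CPM in the 8-week pair, with a mean of 543 CPM per kb by the longest transcript, against 448 for Sec61b. Per kb it exceeded Lman1 by 5.27- and 6.90-fold at 32 weeks and by 5.44- and 5.86-fold at 8 weeks. By the median coding transcript the mean levels were 577 CPM per kb for Lman1l and 150.3 for Lman1. Sec23b (782) and Sec61b (587) then stood above Lman1l. For Sec23b this rests on a median length of 944 bases, against 2779 for its longest transcript. The ages overlapped (log2 fold change 0.07, SE 0.28).

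Some of these counts may hold reads of a neighbour. In the annotation Srpr, Sec63, Spcs1, Sec11a, Rpn2, Sec23a, Sec24c, Sec24d, Copa, Kdelr1 and Kdelr3 overlap a gene on the opposite strand. Srprb, Sec11a, Sec24a and Copz1 overlap one on the same strand, which for Sec24a and Copz1 is a small RNA gene, and the sources used here do not give the strand setting of the counting.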

How the data were processed

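RNA from 4 female Nkx2.3-/- sublingual gland libraries was sequenced, 2 at 32 weeks and 2 at 8 weeks. The deposited values are raw counts per gene symbol that the authors made. Reads were aligned with STAR to mm9, per the submitters' processing notes. The sources used here do not give the STAR version, counting tool, annotation or strand setting. Totals of 12925869 to 16484772 counts make 3 counts, the floor for a count of 0, worth 0.174 to 0.221 CPM, and intervals cover the spread between libraries only as far as 2 an age allow.

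Counts were tested with edgeR 4.0.16 in R 4.3.3, using TMM factors, filterByExpr, the quasi-likelihood test of 32 over 8 weeks and p-values adjusted after Benjamini and Hochberg over 12810 of 24411 genes. The 95% intervals come from the same fit. DESeq2 1.42.0, limma-voom (limma 3.58.1), other scalings and filters, and each library left out were alternatives. The test was checked on simulated counts.

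Levels per kb used the longest protein-coding transcript of GENCODE vM1 (NCBIM37, the assembly of mm9). Promoter sequences are RefSeq windows on GRCm38.p6, whose coordinates were not mixed with those of NCBIM37.

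The members, gene lists and naming rule were chosen with earlier results of these data known. Named in full were, in each complex, the 2 members highest per kb and those with the largest positive and negative log2 fold change, the paralog families, the gene of at least 10 CPM with the largest absolute log2 fold change in each other list, Xbp1, Creb3l1, Hspa5 and the control genes. With 2 libraries an age an exact permutation test of a single value cannot go below 0.333, so none was used.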

Additional observations from a re-analysis of the deposited data

How the results depend on the processing

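No member passed an adjusted p of 0.05 in any of the alternatives run. Over all genes edgeR called 0, against 10 with scaling by total counts only, 7 with no low-count filter, 3 with DESeq2, and 6 to 285 with 1 library left out (285 without 8-week replicate 1, where the lone 8-week library is assumed to vary like the 32-week pair). The members' median log2 fold change of -0.03 was -0.12 with total counts only, which moved the median of all genes to -0.10, and lay between -0.10 and 0.0046 with 1 library left out. With total counts only the sign turned for Srp14 (-0.063), Ssr2 (-0.035), Sec11a (-0.046), Ddost (-0.063), Sar1a (-0.080), Hspa5 (-0.042) and Lman1l (-0.0034), and with limma-voom for Hspa5 (-0.00081). Of the members not named in full it turned for Spcs2 (-0.079) and Dad1 (-0.051) with total counts only, for Srprb with limma-voom (0.0028) and for Rpn1 with the 10 most abundant genes left out (0.0016). Of the 48 genes named in full, members and others, 30 turned sign with 1 library left out, 19 of them without 8-week replicate 2, and the cause was not tested. Their log2 fold changes then ranged from -0.20 to 3.15 for Agr2, -0.020 to 0.31 for Cope, -1.26 to 0.012 for Copg2, -0.73 to 0.085 for Copz1, -0.083 to 0.83 for Creb3l1, -0.52 to 1.06 for Dcpp3, -0.11 to 0.20 for Ddost and -0.24 to 0.25 for Hspa5. Further ranges were -0.48 to 3.15 for Jchain, -0.097 to 0.34 for Kdelr2, -0.34 to 0.16 for Kdelr3, -0.25 to 0.23 for Lman1, -0.10 to 0.28 for Lman1l, -0.18 to 0.13 for Rpn2, -0.23 to 0.30 for Sar1a and -0.21 to 0.0045 for Sar1b. The next were -0.078 to 0.19 for Sec11a, -0.39 to 0.11 for Sec13, -0.52 to 0.00035 for Sec24a, -0.26 to 0.23 for Sec24c, -0.19 to 0.037 for Sec61a1, -0.051 to 0.28 for Spcs1, -0.083 to 0.15 for Srp14 and -0.19 to 0.77 for Srp19. The last were -0.32 to 0.063 for Srpr, -0.030 to 0.16 for Ssr2, -0.020 to 0.36 for Ssr4, -0.057 to 0.38 for Stt3b, -0.12 to 0.43 for Tmed2 and -1.43 to 0.23 for Tmed9. Without 8-week replicate 1, Copg2 (edgeR adjusted p = 0.0268), Agr2 (0.00151) and Jchain (0.0193) passed. No paired analysis was possible because the ages share no replicate number. Depth was not limiting for the members, whose lowest count was 162, and the number of libraries was, with a median 95% half-width of 0.53 on the log2 scale.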

Other observations

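Of the other regulators of secretory genes on the list, 7 passed the low-count filter, each with lower CPM than Xbp1 and Creb3l1 in the same library. Per kb of the longest transcript this did not hold in 8-week replicate 2. There Creb3l4 had 234 CPM per kb, against 212 for Xbp1 and 151 for Creb3l1. Bhlha15, a factor of secretory cells, had 156 and 159 CPM in the 32-week pair, against 183 and 120.3 CPM in the 8-week pair. Creb3l4 had 287 and 268 CPM in the 32-week pair, against 261 and 364 CPM in the 8-week pair, highest in 8-week replicate 2 where Creb3l1 was lowest. Atf6b had 8.30 and 11.3 CPM in the 32-week pair, against 8.12 and 4.97 CPM in the 8-week pair. Ern2, a sensor of the unfolded protein response in mucous cells, was at 0 counts in all 4 libraries, and Creb3l3 had 0 to 2 counts. Arf5, a GTPase of the COPI route singled out after its value was seen, had 85.0 and 78.3 CPM in the 32-week pair, against 86.9 and 27.7 CPM in the 8-week pair, and the low value was again in 8-week replicate 2.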
